A study of Mus musculus with 22 samples.

Results

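The genes described here encode the proteins of the cytosolic ribosome. They were taken by symbol: a letter code for the large (Rpl) or small (Rps) subunit with a number, together with Rplp0, Rplp1, Rplp2 and Rpsa. Pseudogene rows and the ribosomal S6 kinases were left out. The rule found 90 genes among 55401 in the hepatocyte data and the same 90 among 55573 in the stellate cell data. Of these, 77 are core subunit genes and 13 are copies or paralogs such as Rpl22l1, Rpl7l1 and Rps4l.

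RNA was sequenced from primary liver cells of wild type C57BL/6 mice on chow diet, in bulk. Hepatocytes, grown in Williams Medium E with serum on collagen, were left untreated (Con-Hepa, 6 libraries, labelled placebo) or received 100 uM of the iron chelator deferoxamine (DFO-Hepa, 6 libraries). Hepatic stellate cells, the vitamin A storing cells of the liver that turn into matrix-producing myofibroblasts, were grown in DMEM with serum and were left untreated (Con-HSC, 5 libraries) or received 100 uM iron (Fe-HSC, 5 libraries). Treatment began 24 h after plating and lasted 24 h. No label gives the age or sex of the mice, the form of iron, or whether libraries of a group came from separate animals, so the p-values below describe how these libraries scatter, and that scatter could be technical. In these bulk samples, fewer cells of a type and less RNA per cell cannot be told apart.

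A ribosome is built in the nucleolus from ribosomal RNA and one copy of most of these proteins, so their genes are expressed together at high level in every growing cell. In vertebrates their mRNAs start with a pyrimidine tract (the TOP sequence), through which the mTORC1 kinase and the RNA-binding protein Larp1 control their translation and stability. Ribosomal proteins that are not built into subunits, Rpl5 and Rpl11 above all, bind and inhibit Mdm2, the ubiquitin ligase of p53. Some of the proteins carry a hydroxylation set by iron-dependent oxygenases, as known from human cells: Rpl8 by Riox1, Rpl27a by Riox2 and Rps23 by Ogfod1.

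RefSeq start-site windows (build GRCm38.p6) were at hand for 65 of the 90 genes. A run made of a C followed by at least 7 bases that are each C or T began within 25 bases of the annotated start in 34 of 65 (52.3%), against 16.2% of all 32851 promoter entries. In 17 of the 34 the run began within 5 bases of the start. Windows of 30 bases are shown 5′ to 3′ on the strand of the gene, with the run in capitals. The first set holds core genes and paralogs with such a run, among them Rpl15, which fell most of the core genes with DFO, and Rps12, which rose with both treatments.
Rpl15 (chr14:18270967-18270996, minus strand): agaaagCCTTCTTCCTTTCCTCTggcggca
Rpl27a (chr7:109519186-109519215, plus strand): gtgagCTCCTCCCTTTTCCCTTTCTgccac
Rps12 (chr10:23787181-23787210, minus strand): caccgccggCCTTTTCCCCTgccgccgccg
Rplp2 (chr7:141447637-141447666, plus strand): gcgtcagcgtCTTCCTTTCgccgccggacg
Rpl22l1 (chr3:28805500-28805529, plus strand): gcaagcccgttCTCTTCCCacggctgcagc
Rps27 (chr3:90213631-90213660, minus strand): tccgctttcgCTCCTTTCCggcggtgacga
Rps27l (chr9:66946064-66946093, plus strand): ctcctctccaCTCCTCCCCgccgcctctat

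The second set is centered on the annotated start and holds genes that the results turn on and in which no such run was found, namely Rpl12, which rose most with DFO, and Rpl27 and Rps23, which fell with DFO and rose with iron.
Rpl12 (chr2:32961697-32961726, plus strand): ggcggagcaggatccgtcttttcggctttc
Rpl27 (chr11:101442230-101442259, plus strand): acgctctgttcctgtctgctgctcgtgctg
Rps23 (chr13:90923107-90923136, plus strand): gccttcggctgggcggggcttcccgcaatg

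The run was found in 10 of the 21 windows of genes called higher with DFO, 2 of 5 called lower and 22 of 36 not called. The literal motif CCGGAAG, searched on both strands over the 300 bases from 250 before to 50 after the start, was found in 38.5% of the 65 promoters against 8.86% of all entries. CACGTG, a palindrome read the same way, was found in 7.69% against 7.15%, AANATGGC in 18.5% against 6.05%, and TATAAA in 10.8% against 13.6%. These shares describe letters in a window and are not evidence of binding.

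Hepatocyte libraries held 19342490 to 41839154 counts and stellate cell libraries 12058226 to 32067635. The 90 genes took 2.76% to 3.07% of all counts in the 6 control hepatocyte libraries and 2.77% to 3.80% with DFO, where DFO-Hepa-6 was the highest. In stellate cells the share was 2.45% to 2.62% in controls 1, 2, 4 and 5 but 0.555% in control 3. With iron it was 2.93% to 3.78% in libraries 1, 2 and 4, 7.67% in library 3 and 10.0% in library 5. The same libraries stood apart in the mean exonic length of the genes behind their reads: 7.23 kb in control 3 against 5.62 to 5.69 kb in the other controls, and 4.27 and 4.02 kb in iron libraries 3 and 5 against 5.16 to 5.61 kb in the other iron libraries. Of those other iron libraries, Fe-HSC-4 had the shortest length, 5.16 kb, and the highest share, 3.78%. Fe-HSC-1 and Fe-HSC-2 had 5.61 and 5.57 kb and shares of 2.93% and 2.95%. DFO-Hepa-6 had 4.73 kb against 5.02 to 5.36 kb in the other DFO libraries. The counts of stellate cell members called are therefore given for all 10 libraries and for the 7 left without Con-HSC-3, Fe-HSC-3 and Fe-HSC-5. Most single members and gene lists are given for the 7 alone. Over all 10, only Rpl5 and Rpl12 of the members were called. The hepatocyte counts are also given without DFO-Hepa-6.

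**Figure D1:**
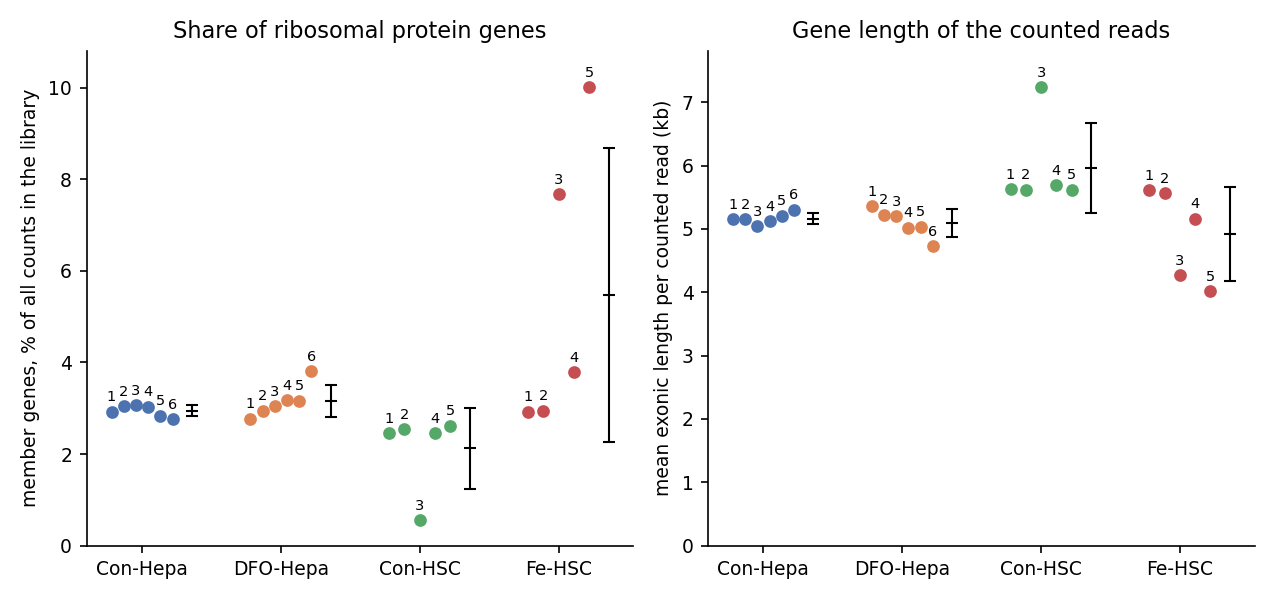
Share of the 90 ribosomal protein genes in each library's counts (left, %) and mean exonic length of the gene behind a counted read (right, kb), with points numbered by library and bars giving mean ± SD of the group. Con-HSC-3 lies lowest on the left at 0.555% and highest on the right at 7.23 kb, and Fe-HSC-3 and Fe-HSC-5 are highest on the left at 7.67% and 10.0%.

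Markers of the labelled cells were present. The 8 hepatocyte markers summed to 7996 to 11514 CPM (counts scaled to library size) in the hepatocyte libraries and to 44.4 to 191 CPM in the stellate cell libraries, and the 8 stellate cell markers summed to 7693 to 12972 CPM in the latter. Other markers moved with the groups. The 14 macrophage and Kupffer cell markers summed to 184 to 214 CPM in control and 275 to 368 CPM in DFO hepatocytes. Of these, 10 of 13 tested were called higher (against 27.9% of all genes). In stellate cells they summed to 196 to 272 CPM in controls and 2181 to 3490 CPM with iron. There 13 of 13 were called higher (against 4.05% of all genes), also in the 7 libraries (against 18.3%). In the 7 libraries the stellate cell markers were lower in 7 of 8 and the hepatocyte markers in 8 of 8 (against 19.8% of all genes). Sinusoidal endothelial markers were higher in 11 of 12 (against 18.3%) and lower in 1. Of the 8 lymphocyte markers 3 were at 0 in every stellate cell library and the sum did not pass 2.44 CPM. The part of other cells in the results below was not tested.

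Levels of the ribosomal protein genes spanned a wide range within a library when expressed per length. In control hepatocytes the core genes ran from 2.26 FPKM (fragments per kilobase of exon scaled to library size, the authors' unit) for Rps13 to 2759 FPKM for Rplp1, an acidic stalk protein. The median of the 90 genes stood at 109 FPKM, and 4 genes were under 1 FPKM. Rpl10l, known from mouse testis, was listed at 0 in both control groups. Rpl3l, known from striated muscle, averaged 0.0517 FPKM in control hepatocytes. The order of the levels was similar in stellate cell controls 1, 2, 4 and 5, with a Spearman's rho of 0.886 over the 86 genes at 1 FPKM or more in both. This describes genes of 2 separately normalized sets and carries no test. Pseudogenes of the members fill 321 rows of the hepatocyte and 393 rows of the stellate cell values. Near-identical reads may be split between parent and pseudogene, so the levels and changes of single members are uncertain. Of the counts of its own and its pseudogene rows in hepatocytes, Rps12 took 31.9% to 45.5%, Rpl31 38.5% to 52.2% and Rps23 60.4% to 78.6%. Rpl15 took 89.3% to 94.3%, Rpl27 90.1% to 95.4% and Rpl12 at least 99.9%. Whether the split moved with treatment was not tested.

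DFO moved the ribosomal protein genes of hepatocytes by small amounts in both directions. Of 86 genes that passed the filter on low counts, 28 rose (32.6%, against 27.9% of all 15660 genes tested) and 9 fell (10.5%, against 30.1% of all), by edgeR's quasi-likelihood test with Benjamini-Hochberg adjustment under 0.05 over all genes. At an unadjusted p under 0.05, 30 were higher (34.9%, against 30.2% of all) and 10 lower (11.6%, against 31.9%). The share that rose was near that of all genes, and the share that fell was below it. The median change was 0.11 on the log2 scale against -0.001 over all genes, and single genes ran from -0.56 (Rps4l) to 0.49 (Rpl12). Both subunits took part: 15 of 46 large and 10 of 31 small subunit genes rose, and 4 and 3 fell. Of the 9 copies and paralogs tested, 3 rose and 2 fell. Groups without overlap between libraries were found for 11 higher genes (12.8%, against 16.6% of all) and 5 lower genes (5.81%, against 19.4%).

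DFO-Hepa-6 was the highest DFO library for 73 of the 86 genes and for 27 of the 28 called higher. Without it 25 rose and 12 fell, against 29.5% and 31.9% of all genes, and the median change was 0.04. All 25 were among the 28, and Rpl39 and Rps4x lost their call. The 9 lower genes remained and Rpl27a, Rpl36al and Rps27l joined them. A correction of each library for a trend with gene length gave 42 higher genes (48.8%, against 30.9% of all genes under the same correction) and 11 lower genes (12.8%, against 30.3%).

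Rpl12, which sits at the base of the ribosomal stalk (mm10, chromosome 2, 32961559 to 32965345, plus strand), rose most. It stood at 70.1, 70.5, 71.5, 77.2, 78.5 and 80.7 CPM in the controls and at 88.2, 96.3, 102.5, 109.5, 110.2 and 122.5 CPM with DFO. The groups did not overlap, and the change was 0.49 ± 0.07 (log2 ± SE, n = 6 and 6, edgeR adjusted p = 1.12e-05). Rps28, at the mRNA exit of the small subunit, held 41.3 to 51.3 CPM in controls and 51.7 to 80.4 CPM with DFO, again with no overlap (0.36 ± 0.09, adjusted p = 0.00172). Rpl23, on the face of the large subunit that joins the small one, had 342 to 371 CPM in controls and 407 to 554 CPM with DFO (0.33 ± 0.06, adjusted p = 0.000295). DFO-Hepa-6 was the highest library for these 3 genes, and without it their changes were 0.44, 0.27 and 0.25, each still called. Rps12 rose by 0.35 ± 0.07 and the copy Rps3a3 by 0.32 ± 0.10, and in both the groups overlapped.

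The stalk itself and Rpsa, the laminin-receptor protein of the small subunit, were among the most abundant members. Rplp0, the scaffold of the stalk, rose from 1811 ± 142 to 2168 ± 267 CPM (SD, n = 6 each; 0.26 ± 0.07, edgeR adjusted p = 0.00659), and the groups overlapped. Its partners were not called: Rplp1 changed by 0.10 ± 0.09 and Rplp2 by 0.18 ± 0.11. Rpsa changed by 0.07 ± 0.07.

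Among the core genes that fell, Rpl15, a structural protein of the large subunit, fell most (chromosome 14, 18267823 to 18271391, minus strand). Its control libraries held 69.1, 68.7, 66.6, 63.0, 56.8 and 56.8 CPM, and its DFO libraries held 39.99 to 51.02 CPM. The groups did not overlap (-0.46 ± 0.07, n = 6 and 6, edgeR adjusted p = 3.12e-05). Rpl27, a large subunit protein, had 22.6 to 29.6 CPM in controls and 17.3 to 21.2 CPM with DFO, also without overlap (-0.44 ± 0.07, adjusted p = 4.3e-05). Rpl3, which reaches toward the peptidyl transferase center, had 327 to 394 CPM in controls and 269 to 316 CPM with DFO (-0.30 ± 0.06, adjusted p = 0.000344). Its groups did not overlap either.

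The small subunit genes that fell were Rps29, a zinc-binding protein, Rps23 at the decoding center, and Rps27a, made as a fusion with ubiquitin. Rps23 held 15.2 to 20.4 CPM in controls and 11.03 to 16.35 CPM with DFO, and the groups overlapped through DFO-Hepa-6 (-0.39 ± 0.09, edgeR adjusted p = 0.000969). Rps29 held 14.72 CPM in its highest control library and 7.45 to 9.99 CPM in DFO libraries 1 to 5, with 13.6 CPM in DFO-Hepa-6, through which the groups overlapped (-0.40 ± 0.11, adjusted p = 0.0055). Without that library its change was -0.52. Rps27a, chosen after its values were seen to complete the list, fell by 0.28 ± 0.11. Rpl31, at the exit of the peptide tunnel, fell by 0.28 ± 0.08.

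The genes that fell were mostly low in level. At a division of 50 FPKM in the mean over all libraries, chosen after the values were seen, 8 of the 9 lower genes lay among the 29 tested genes under it, of which 6 rose. Among the 57 genes at or above it 22 rose and 1, Rpl3, fell. Of all tested genes, whatever their level, 27.9% rose and 30.1% fell. Shares of all genes on either side of the division were not counted. The median change of the members was 0.06 under the division and 0.13 above it, and without DFO-Hepa-6 it was -0.04 and 0.06.

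**Figure D2:**
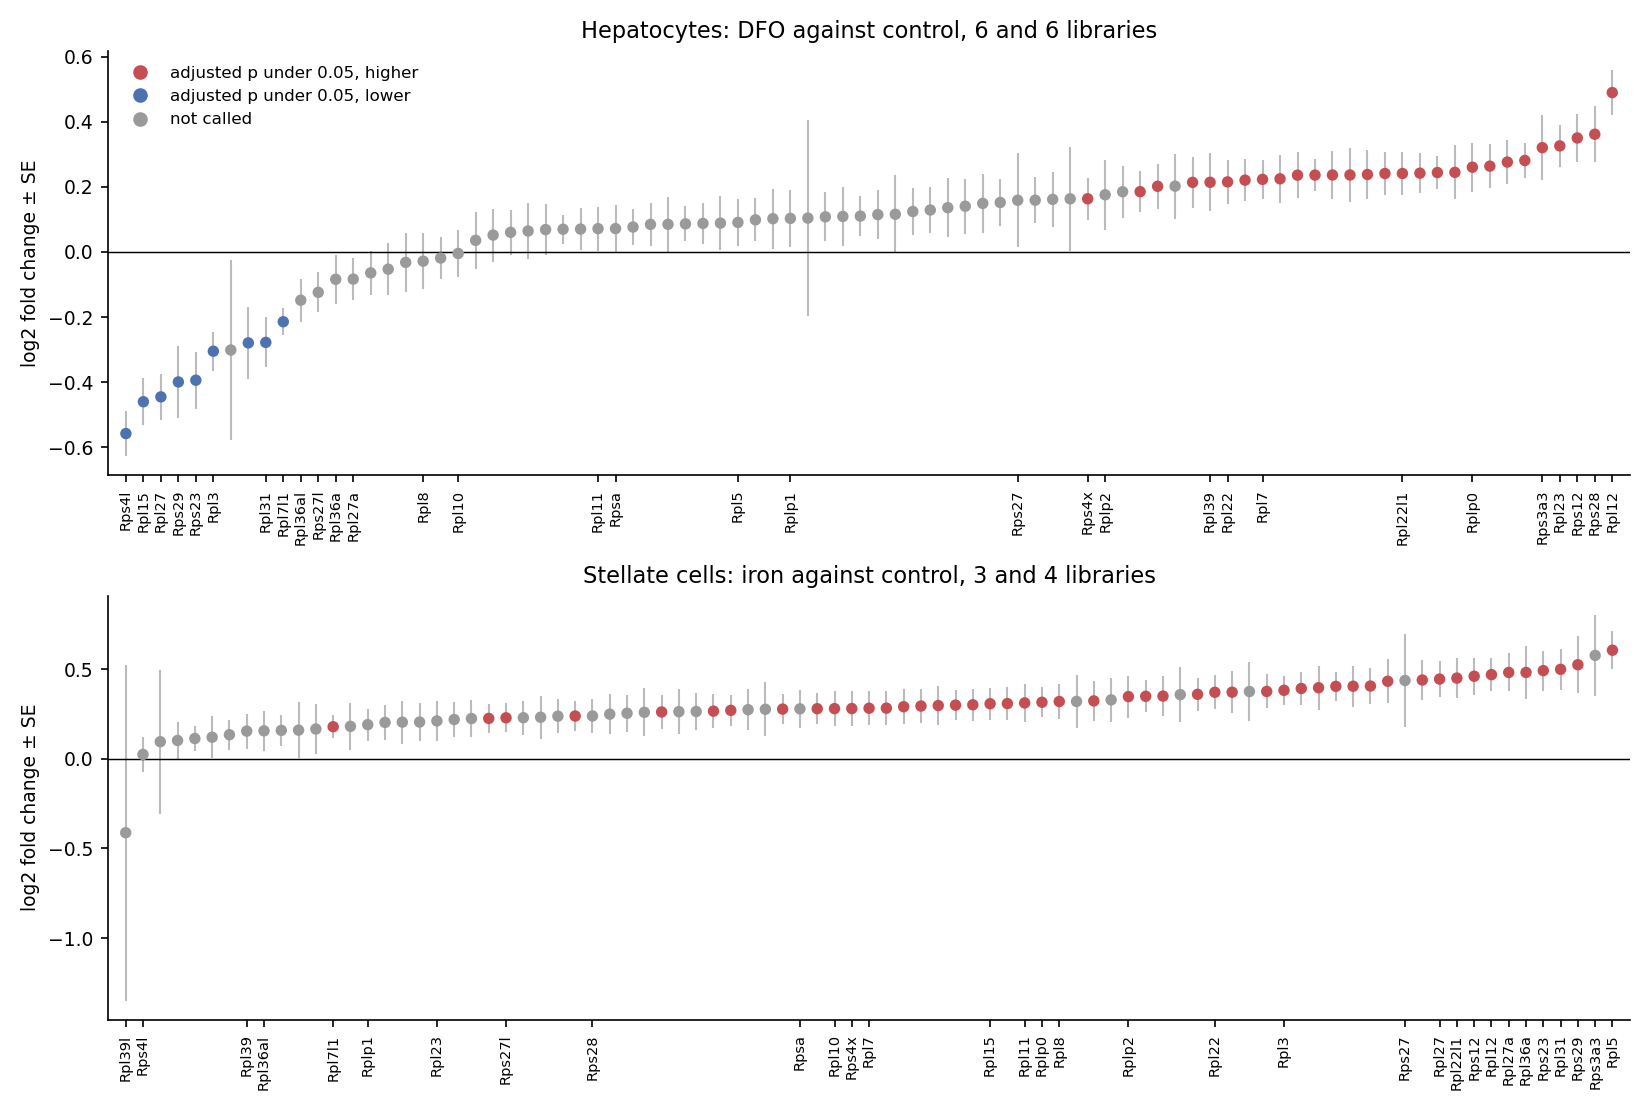
Log2 fold change ± SE of each tested ribosomal protein gene, ordered by size and labelled for the members named by rule, in hepatocytes (top, 86 genes, DFO against control) and in the 7 stellate cell libraries (bottom, 87 genes, iron against control). In the top panel 28 genes are red (higher) and 9 blue (lower), and in the bottom panel 49 are red and none is blue.

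The oxygenase substrates Rpl8 and Rpl27a were not called with DFO (-0.03 ± 0.09 and -0.08 ± 0.07), while Rps23 fell as given above. Without DFO-Hepa-6 Rpl27a was called at -0.15. Of 14 listed iron-dependent enzymes that act on the ribosome, its factors or tRNA, 11 fell with DFO (78.6%, against 30.1% of all genes) and none rose, with a median of -0.25. Riox2, which hydroxylates Rpl27a in human cells, fell from 37.8 ± 1.7 to 26.4 ± 1.2 CPM (-0.52 ± 0.05, edgeR adjusted p = 7.49e-08), and Ogfod1, the Rps23 hydroxylase, from 27.7 ± 1.8 to 23.8 ± 1.6 CPM (-0.23 ± 0.06). Riox1 changed by -0.16 ± 0.08 and was not called, but was without DFO-Hepa-6 (-0.21). Dph1, needed for the diphthamide of elongation factor Eef2, fell by 0.61 ± 0.07.

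The Mdm2 binders Rpl5 and Rpl11 were not called with DFO. Rpl5 held 18.8 to 21.9 CPM in controls and 19.97 to 26.87 CPM with DFO (0.09 ± 0.07), and Rpl11 changed by 0.07 ± 0.07. Of 8 listed genes of the p53 and nucleolar stress response 5 rose (62.5%, against 27.9% of all genes) and 1 fell (12.5%, against 30.1%). Mdm2 rose from 221 ± 13 to 326 ± 17 CPM (0.56 ± 0.05) and Cdkn1a, the cell cycle inhibitor p21, by 0.61 ± 0.06. Zmat3 was the gene that fell (-0.30 ± 0.04). Without DFO-Hepa-6, 5 rose (against 29.5% of all genes) and 2 fell (against 31.9%).

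Most genes of the machinery that builds ribosomes fell with DFO. Of 60 ribosome biogenesis factors 48 fell (80.0%, against 30.1% of all genes) and 2 rose, with a median of -0.34, beside 9 and 28 of the 86 ribosomal protein genes. Dkc1, the pseudouridine synthase of ribosomal RNA, fell from 73.3 ± 2.7 to 32.5 ± 2.7 CPM (-1.17 ± 0.06, edgeR adjusted p = 1.35e-11), Nop56 of the box C/D particles by 0.71 ± 0.05 and Rrp12 by 0.65 ± 0.04. Of 19 genes of RNA polymerase I and its factors 8 fell (42.1%) and 3 rose. Of the other mRNAs with a TOP sequence 9 of 22 rose (40.9%, against 27.9% of all genes) and 1 fell, with a median of 0.11, led by Pabpc1 (0.43 ± 0.05) and Eef2 (0.32 ± 0.06).

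Other large complexes were counted in the same way, beside 27.9% of all tested genes higher and 30.1% lower. The 78 mitochondrial ribosomal protein genes had 45 lower and 2 higher (57.7% lower, median -0.20), the 18 proteasome core genes 13 lower and none higher (72.2% lower, median -0.27), and the 20 aminoacyl-tRNA synthetases 13 lower and 1 higher (65.0% lower, median -0.24). Of the 36 nuclear genes of complex I 11 were lower (30.6%, near the share of all genes) and 1 higher (median -0.13). The shares were not tested against each other. Without DFO-Hepa-6 the lower counts of the mitochondrial ribosomal proteins, proteasome, synthetases and complex I were 62, 17, 14 and 26, against 31.9% of all genes. Of 27 genes of the mTORC1 pathway 11 rose (40.7%, against 27.9%) and 10 fell (against 30.1% of all genes). Among the 4 genes of smallest p in this list, Ddit4, an inhibitor of mTORC1, rose by 1.18 ± 0.06 and Sesn3 by 0.68 ± 0.08. Ddit4l (-0.43 ± 0.06) and Castor1 (-0.72 ± 0.10) fell.

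**Figure D3:**
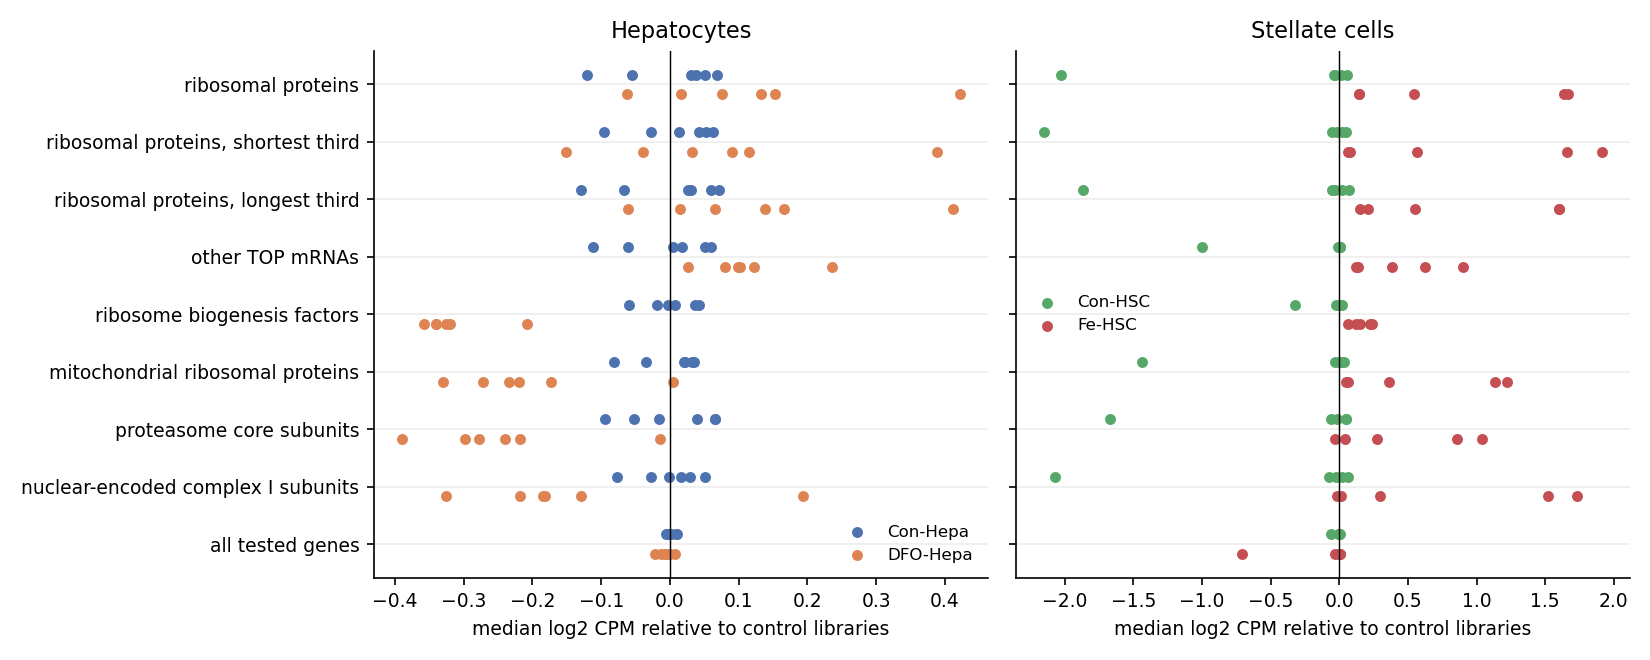
Median log2 CPM of each gene list in each library, relative to the control libraries of the cell type (for stellate cells, controls 1, 2, 4 and 5), in hepatocytes (left) and stellate cells (right). The axes differ between panels. DFO-Hepa-6 reaches 0.42 for the ribosomal proteins, Con-HSC-3 lies at -2.03, and Fe-HSC-3 and Fe-HSC-5 lie at 1.64 and 1.67.

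In stellate cells the ribosomal protein genes were higher with iron, by an amount that depended on the libraries. Over all 10 libraries 2 of 87 genes were called higher, Rpl5 and Rpl12 (2.30%, against 4.05% of all 15502 genes), and none lower (against 3.37%), by edgeR's quasi-likelihood test. At an unadjusted p under 0.05 there were 71 higher (against 16.0%) and none lower (against 11.7%). DESeq2 called 52 higher and none lower, and for it no share over all genes is given. The median change was 1.25 against -0.06 over all genes, and all 87 values were above 0. Groups did not overlap for 43 higher genes (49.4%, against 8.42% of all) and for no lower gene (against 13.4%). Con-HSC-3 was the lowest control for 86 of the 87 genes, and Fe-HSC-3 or Fe-HSC-5 was the highest iron library for 83.

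In the 7 libraries (4 controls, 3 with iron) the median change was smaller: 49 of 87 genes rose (56.3%, against 18.3% of all 16287 genes) and none fell (against 19.8%; unadjusted, 63 higher against 22.4% and none lower). It was 0.28 against 0.006 over all genes, and the genes called rose by 0.18 to 0.61 on the log2 scale. They were 27 of 46 large subunit genes, 19 of 31 small subunit genes and 3 of 10 copies and paralogs. Groups did not overlap for 48 higher genes (55.2%, against 20.9% of all) and for no lower gene (against 22.8%). Fe-HSC-4 was the highest of the 3 iron libraries for 85 of the 87 genes. Without it 40 rose (against 19.7% of all genes), none fell (against 19.9%) and the median was 0.16, and with the length correction 47 rose (against 20.3%) and the median was 0.23. Leaving out any of the other 6 libraries gave 29 to 61 higher genes, the lowest without Con-HSC-4 (33.3%, against 16.1% of all genes). The count was 30 without Con-HSC-1 and 61 without Fe-HSC-1 or Fe-HSC-2. For these fits the share over all genes was not counted, so the counts have no background beside them. Of the 49 genes 25 were called in each of the 10 other fits of these libraries and 24 lost their call in at least 1, and the change was above 0 in every fit for all 49.

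Rpl5 was called in both sets, with the largest change among the genes called in each. It held 15.3, 14.5, 6.70, 12.8 and 14.7 CPM in control libraries 1 to 5 and 23.0, 19.0, 38.7, 23.7 and 41.8 CPM in iron libraries 1 to 5. No iron library overlapped a control. The change was 1.19 ± 0.30 over all libraries (edgeR adjusted p = 0.0379) and 0.61 ± 0.11 in the 7 libraries (adjusted p = 0.000588). Rpl12 held 46.6, 50.5, 25.5, 51.8 and 55.5 CPM in controls and 64.7, 67.1, 131.9, 81.4 and 147.6 CPM with iron, also with no overlap (1.10 ± 0.30, adjusted p = 0.0489, and 0.47 ± 0.09 in the 7 libraries). Over all 10 libraries neither call held without any 1 of the controls or without Fe-HSC-3 or Fe-HSC-4. Rpl11 rose by 0.31 ± 0.11 in the 7 libraries, a call lost without any 1 of the 4 controls or without Fe-HSC-4 (edgeR adjusted p up to 0.0830).

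Rps29, Rpl31, Rps23 and Rpl36a followed Rpl5 in size among the genes called in the 7 libraries. Rps29 held 12.3, 12.2, 10.3 and 11.2 CPM in the 4 controls and 13.1, 15.1 and 22.2 CPM with iron (0.53 ± 0.16, edgeR adjusted p = 0.0197). Rpl31 held 18.5 to 20.2 CPM and then 22.9, 26.5 and 32.7 CPM (0.50 ± 0.11, adjusted p = 0.00376). Rps23 held 13.7 to 17.7 CPM and then 21.1, 19.5 and 24.0 CPM (0.49 ± 0.11, adjusted p = 0.00349), and Rpl36a rose by 0.48 ± 0.15. The call of Rps29 was lost without Con-HSC-4 or Fe-HSC-4 (edgeR adjusted p up to 0.0512) and that of Rpl36a without Con-HSC-5 (0.0559). None of the 4 genes overlapped between these groups.

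The libraries set aside did not all move these genes one way. Fe-HSC-5, the library with the highest share of member counts, was the lowest iron library for 11 of 87 genes. Rpl15 held 11.9 CPM there against 46.4 to 58.7 CPM in the other 4 iron libraries, Rpl27 16.7 against 28.6 to 43.3 CPM and Rps23 13.7 against 19.5 to 39.5 CPM. Rpsa, in contrast, held 9709 CPM in Fe-HSC-5 against 1436 to 5281 CPM in the others. In that library the median over all tested genes lay at -0.71 on the log2 scale relative to controls 1, 2, 4 and 5.

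Of the abundant stalk proteins, Rplp0 rose in the 7 libraries from 1593 ± 14 to 1988 ± 294 CPM (SD, n = 4 and 3; 0.32 ± 0.08, edgeR adjusted p = 0.00981) and Rplp2 by 0.35 ± 0.12, a call lost without Con-HSC-1, Con-HSC-2 or Con-HSC-4 (adjusted p up to 0.0822). Rplp1 changed by 0.19 ± 0.09 and Rpsa by 0.28 ± 0.11, and neither was called. The oxygenase substrates Rpl8, Rpl27a and Rps23 all rose (0.32 ± 0.10, 0.48 ± 0.11 and 0.49 ± 0.11), with the call of Rpl8 lost without Con-HSC-2 (edgeR adjusted p = 0.0546). Of the 14 iron-dependent enzymes 1 rose, Alkbh1, and none fell. Ogfod1, Riox1 and Riox2 were not called.

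The other lists are given for the 7 libraries, where 18.3% of all tested genes were higher and 19.8% lower, with no test between lists. Of 60 ribosome biogenesis factors 20 rose (33.3%) and 1 fell (median 0.13), among them Ncl, the nucleolar protein nucleolin, by 0.44 ± 0.07 and Fbl, the rRNA methyltransferase fibrillarin, by 0.56 ± 0.09. Of the 22 other TOP mRNAs 11 rose and none fell (median 0.20), led by Hnrnpa1, Nap1l1 and Npm1. Mitochondrial ribosomal proteins had 15 of 76 higher (19.7%, near the share of all genes) and none lower (median 0.15), complex I 3 of 35 higher (8.57%), and the proteasome 1 of 18 in each direction. Over all 10 libraries the medians of complex I (1.17), the mitochondrial ribosomal proteins (0.91) and the proteasome (0.74) were also above 0, and none of their genes was called. The macrophage markers given above differed between the same libraries.

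The members that fell with DFO were set beside their values with iron, from other cells and libraries. Of the 9, 8 were called higher in the 7 stellate cell libraries: Rpl15, Rpl27, Rpl3, Rpl31, Rpl7l1, Rps23, Rps27a and Rps29. They make up 16.3% of the 49 genes called there. Those 49 were 56.3% of the 87 members tested, against 18.3% of all genes, and the overlap was not tested. Of these 8, 6 were called in each of the 10 other fits of the 7 libraries. Rps29 lost its call as given above, and Rpl7l1 without Con-HSC-1, Con-HSC-4, Con-HSC-5 or Fe-HSC-2 (edgeR adjusted p up to 0.106). The ninth, Rps4l, changed by 0.02 ± 0.10. Of the 28 that rose with DFO 15 were also higher with iron, 53.6% of the 28 and 30.6% of the 49. The 53.6% was near the 56.3% of all members tested. Rpl15, for example, went from 63.5 ± 5.6 to 46.1 ± 4.6 CPM with DFO in hepatocytes and from 41.0 ± 1.2 to 51.1 ± 6.6 CPM with iron in the stellate cells, and Rpl27 from 26.04 ± 2.55 to 19.1 ± 1.6 CPM and from 23.3 ± 0.6 to 32.0 ± 5.0 CPM. The difference between the cell types was not tested, since their values come from separate sets with different treatments.

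**Figure D4:**
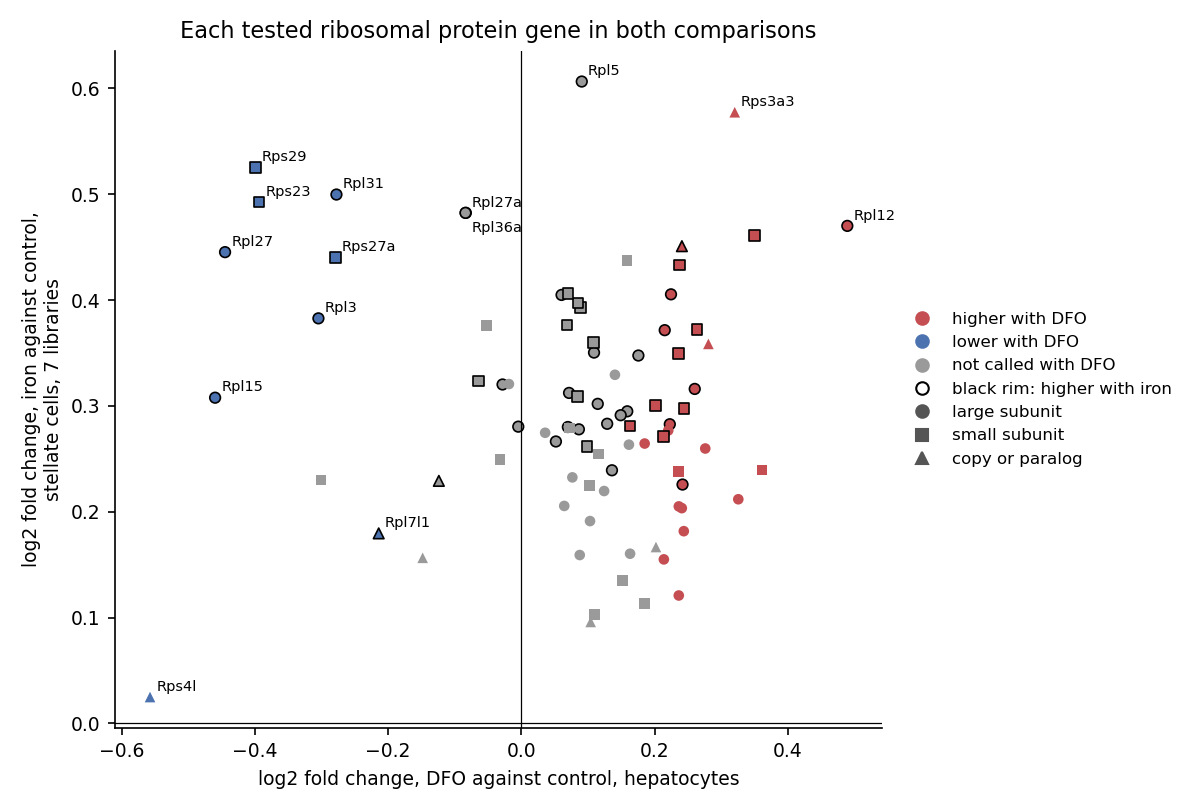
Log2 fold change of each tested ribosomal protein gene with DFO in hepatocytes (horizontal) and with iron in the 7 stellate cell libraries (vertical), by subunit and call. The 9 blue points on the left fell with DFO, and 8 of them carry the black rim of genes called higher with iron. Of the 87 members tested with iron, 49 were called higher.

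Paralogs were compared with their parents as the log2 ratio of counts within a library, which needs no scaling between libraries. Of 8 pairs listed, 5 had at least 10 counts of both genes in every hepatocyte library and 4 in every stellate cell library, and p-values are from exact two-sided permutation tests over libraries, adjusted over the pairs compared in the cell type. Rps4l is a copy of Rps4x on chromosome 6 (148354656 to 148355598, plus strand) whose 943 bases of exon equal its span, so it has no intron in the annotation. Its ratio to Rps4x was -4.40 to -4.59 in control hepatocytes and -5.14 to -5.34 with DFO. The groups did not overlap and the difference was -0.72 (exact permutation p = 0.00216, the smallest that 6 against 6 can give, adjusted p = 0.00541). Rps4x itself rose by 0.16 ± 0.06, a call lost without DFO-Hepa-6, while Rps4l fell by 0.56 ± 0.07.

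Rpl7l1, a paralog of Rpl7 that takes part in building the large subunit in human cells, also moved apart from its parent. The ratio was -2.84 to -2.99 in controls and -3.22 to -3.42 with DFO, again without overlap, with a difference of -0.44 (exact permutation p = 0.00216, adjusted p = 0.00541). Rpl7 rose by 0.22 ± 0.06 and Rpl7l1 fell by 0.21 ± 0.04. The ratio of Rps27l, known as a p53 target, to Rps27 differed by -0.29 and was not called (exact permutation p = 0.0346, adjusted p = 0.0577). Its groups overlapped, and Rps27 itself stood at only 3.98 ± 0.67 CPM in controls. Rpl22l1 and Rpl22 rose side by side (0.24 ± 0.06 and 0.22 ± 0.07), and their ratio differed by 0.03 (exact permutation p = 0.684). The ratio of Rpl36al to Rpl36a differed by -0.06 (p = 0.335, exact permutation).

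In stellate cells no ratio was called over all 10 libraries. Rps4l to Rps4x differed by -0.35 (exact permutation p = 0.111, adjusted p = 0.222) and Rpl7l1 to Rpl7 by -0.45 (p = 0.0556, adjusted p = 0.222, exact permutation). Con-HSC-3 had the highest ratio of Rpl7l1 to Rpl7, -1.49 against -2.49 to -2.70 in the other controls, and without it and the 2 iron libraries the difference was -0.09. In the 7 libraries the smallest exact p for 4 against 3 is 0.0571, which was reached by Rps4l to Rps4x (-0.26) and Rpl36al to Rpl36a (-0.32). In both pairs all 3 iron libraries lay below all 4 controls.

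**Figure D5:**
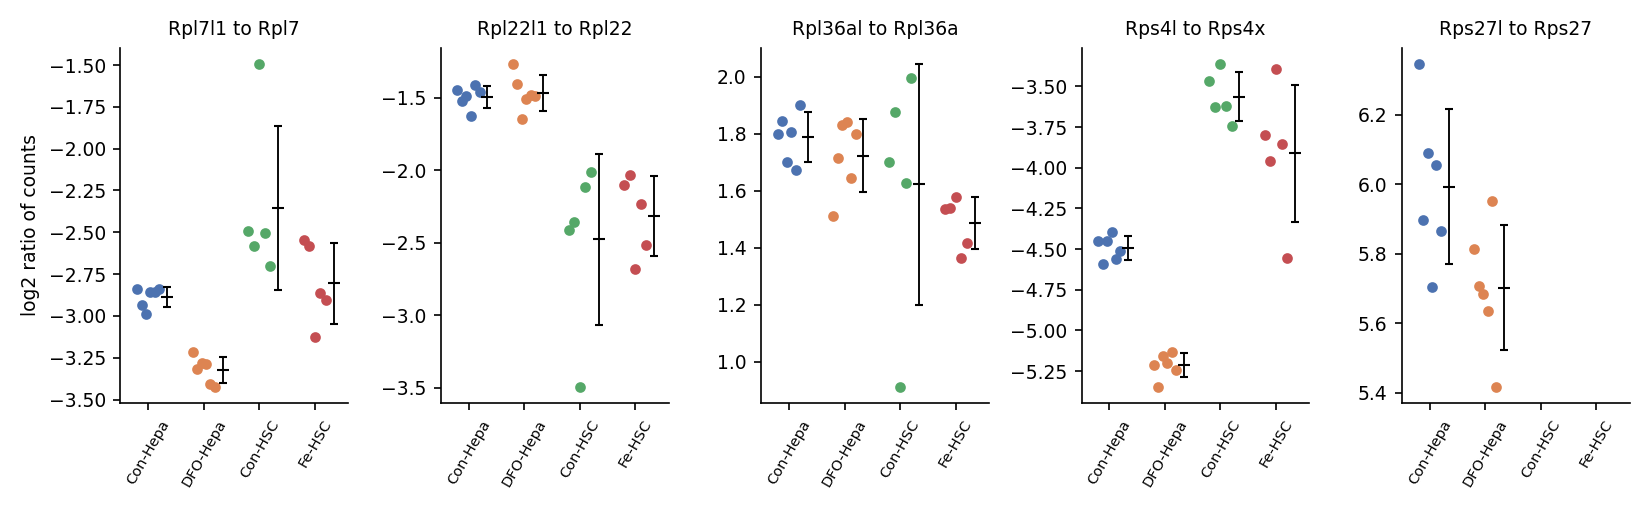
Log2 ratio of the counts of 5 paralogs to those of their parents in each library (points), with mean ± SD of the group beside them. The axes differ between panels. In hepatocytes the DFO libraries lie below all controls for Rpl7l1 to Rpl7 and Rps4l to Rps4x, and the stellate cell panel is empty for Rps27l to Rps27, whose counts were too low.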

How the data were processed

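The deposited values are whole-number read counts per gene and FPKM that the authors derived from them. Recomputed from counts, exonic length and library total, FPKM above 1 differed by less than 1%. The submitters' processing notes name HISAT2 2.0.1, cutadapt 1.9.1 and the build mm10. Strandedness and the way reads were assigned to genes were not stated in the labels, so overlapping genes on opposite strands cannot be told apart. The labels' protocols name a small RNA kit and 4 biological replicates, whereas 6 and 5 libraries per group are labelled. Exonic lengths equal the union of GENCODE M21 exons for all 90 members.

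Counts of each cell type were fitted alone with edgeR 4.0.16 (R 4.3.3, TMM, filterByExpr, quasi-likelihood test, Benjamini-Hochberg over all tested genes, threshold 0.05). CPM values are TMM-scaled and use all libraries of the cell type. Standard errors are those implied by the F value. Members and gene lists were chosen with earlier results of these data known. Named members are the 5 largest called increases and decreases per comparison with at least 1 FPKM, the stalk genes and Rpsa, the 8 paralog pairs, Rpl8, Rpl27a, Rps23, Rpl5 and Rpl11, and up to 4 called genes of smallest p per list. Of the 17 lists, 10 are pathways and 7 are markers. Cholangiocyte markers had 1 higher and 2 lower of 4 in hepatocytes and 2 higher and none lower of 4 in stellate cells. The erythroid markers had no call, and the 1 lymphocyte marker tested, in hepatocytes, was higher.

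Alternatives were DESeq2 1.42.0, RLE factors, scaling without the members, no filter, limma 3.58.1 on log2(FPKM + 1) and log2(FPKM + 0.1), voom with quality weights, a length offset, a replicate block and leaving out libraries. The fits on 7 stellate cell libraries other than the plain one, and the length offset without DFO-Hepa-6, were added after the data were seen. The script was tested on simulated counts. No pair of libraries agreed within sampling noise. Depth limits low members such as Rps27. Sequences are from RefSeq, GRCm38.p6.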

Additional observations from a re-analysis of the deposited data

Results flagged for a closer look

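In 16 cases 1 library stood apart from the rest of its group by Dixon's 95% criterion, of which 15 were among 52 groups of single genes tested over 13 genes. Chance would give about 1 in 20 groups if the groups were independent. Genes of 1 library moved together here, so the count is not compared with that rate. Con-HSC-3 had already been set aside for its shift, and its flags repeat 1 observation. Con-HSC-3 was low in the members' share of counts (0.555%) and in 10 of the 13 genes: Rpl15 (19.3 CPM), Rpl23 (76.5 CPM), Rpl27 (12.0 CPM), Rpl31 (5.07 CPM), Rpl36a (5.56 CPM), Rps23 (3.11 CPM), Rps28 (5.64 CPM), Rps29 (1.63 CPM), Rps3a3 (2.13 CPM) and Rps4l (21.2 CPM). Fe-HSC-3 was high in Rpl31 (57.7 CPM) and Fe-HSC-5 low in Rpl15 (11.9 CPM). In hepatocytes DFO-Hepa-6 was high in Rpl23 (553.6 CPM) and Rps28 (80.4 CPM), and Con-Hepa-3 was low in Rps28 (41.3 CPM).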

How the results depend on the processing

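In hepatocytes the count of genes called higher (28) was 18 with limma on log2(FPKM + 0.1), 19 with log2(FPKM + 1) and 25 to 34 with 1 library left out. The count of lower genes (9) ranged from 8 to 12 over these and the other settings, and the median change from 0.04 to 0.17 with 1 library left out. In stellate cells the 2 genes called higher became 52 with DESeq2, 19 with voom and quality weights, 1 with limma on log2(FPKM + 0.1), 0 without the expression filter, 0 with the length offset, and 0 to 5 with 1 library left out. The 7 libraries gave 49, and 47 with the length offset, 50 with scaling without the members, 56 with DESeq2, and 30, 36, 29 and 39 without control 1, 2, 4 or 5 and 61, 61 and 40 without iron library 1, 2 or 4. The median of 1.25 was 0.25 with voom, 0.28 in the 7 libraries, 0.23, 0.29 and 0.29 in their 3 other fits, 0.28, 0.31, 0.29, 0.30, 0.37, 0.37 and 0.16 with those same libraries left out of the 7, and 1.00 to 1.40 with 1 of the 10 left out. No member was called lower under any stellate cell setting run. The cause of these differences was not tested. Shares over all genes stand above for the settings where they were counted. For the others, among them DESeq2, limma and voom, no share is given beside the member counts.

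The ratio of Rps27l to Rps27 was called with FPKM (-0.29), and with 1 library left out it ranged from -0.35 to -0.22, called without Con-Hepa-4 or without DFO-Hepa-5. No called result changed direction under any setting run. Same-numbered libraries did not deviate together (correlations of -0.24 to -0.003 in hepatocytes and -0.32 to 0.12 in stellate cells, none best with its own number), so the numbers were not taken as pairs. With the replicate block 23 genes were called higher and 8 lower in hepatocytes, and 0 in stellate cells, also 0 with the length offset and block together. Among single members, Rpl22, Rpl39 and Rps4x lost their call in hepatocytes under at least 1 setting, and Rpl5 and Rpl12 over all 10 stellate cell libraries. Of 22 named members called in the 7 libraries, 10 lost their call in at least 1 of the 10 other fits: Rpl7, Rpl7l1, Rpl8, Rpl10, Rpl11, Rpl36a, Rplp2, Rps4x, Rps27l and Rps29.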

Other observations

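The rows of some parents and their pseudogenes split the counts differently in the 2 cell types. Rps2 took 2.81% to 3.96% of the counts of its own row and its pseudogene rows in the hepatocyte libraries and 79.5% to 94.2% in the stellate cell libraries, and Rps18 took 7.68% to 22.4% and 99.5% to 99.9%. In control FPKM Rps2 was 39.3-fold and Rps18 19.1-fold higher in stellate cells, while the copies Rps3a2 and Rpl6l were 17.8-fold and 6.70-fold higher in hepatocytes. These 4 were the genes that differed by more than 4-fold. The gene sets of the deposited values also differ, with 167 gene IDs found in the hepatocyte values alone and 339 in the stellate cell values alone. Whether the annotation or the mapping behind them differs was not tested.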
